A study of Sus scrofa with 10 samples.

Results

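The calcineurin-NFAT pathway was examined through 10 genes in cultured alveolar macrophages of 5 Hampshire pigs, cells that patrol the air sacs of the lung and engulf what is inhaled. The genes were RCAN1, RCAN2 and RCAN3, the calcineurin subunit genes PPP3CA, PPP3CB and PPP3R1, and the transcription factor genes NFATC1, NFATC2, NFATC3 and NFATC4. They were taken by gene symbol from the platform's probe annotation, and all 10 had at least 1 probe set, 26 probe sets in all, among 13755 named genes and 47845 probe sets on the Affymetrix Snowball pig array. The probe set with the highest mean over the 10 arrays stood for each gene. Expression was measured on 10 arrays, 1 of non-adherent and 1 of adherent macrophages for each pig number in the labels (n = 5 each). Both groups were thawed from frozen stocks and kept overnight with recombinant human CSF-1, a macrophage growth factor, and the labels call both untreated at 0 h. The non-adherent cells were those floating after the culture, sorted by cytometry for large size and high granularity. The adherent cells had attached to the plate, no sort is stated for them, and their arrays were re-analysed from an earlier series, so that group, sort and array series cannot be told apart. Against their untreated label, the treatment protocol of the adherent samples describes discarding attached cells and adding lipopolysaccharide, a bacterial stimulus of macrophages.

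Calcineurin is a phosphatase switched on by calcium and calmodulin, built of a catalytic A subunit (PPP3CA, PPP3CB or PPP3CC) and a calcium-binding B subunit (PPP3R1). It removes phosphates from NFATC proteins, which then enter the nucleus and drive transcription, until kinases such as GSK3 and the DYRK family return them to the cytoplasm. RCAN proteins bind calcineurin and can inhibit it, and in human and mouse cells a transcript of RCAN1 is itself induced by NFAT. In myeloid cells of those species the pathway is known to act downstream of dectin-1 (CLEC7A) and CD14, and NFATC1 drives the formation of osteoclasts.

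The arrays resembled each other in scale, with medians between 4.97 and 5.09 on the log2 scale on which all values here are given. The array of adherent animal 1 stood apart, with a mean correlation of 0.9612 with the other adherent arrays, against 0.9801 to 0.981 for the other adherent arrays and 0.9835 to 0.9867 within the non-adherent group. Of 18 probe sets for hybridisation controls, which hold no pig RNA, AFFX-BioB-3_at, AFFX-BioB-5_at and AFFX-BioB-M_at differed most, with means of 8.75 to 9.32 on non-adherent arrays, against 5.61 to 6.06 on adherent arrays, a difference of 3.08 to 3.26. The other 15 differed less, BioC by 0.65 and 0.90, BioDn by 0.29 and 0.40 and CreX by 0.22 and 0.32, all higher on non-adherent arrays. The 9 with r2 in their name, which again include BioB, differed by -0.36 to 0.40. Their group means of 3.71 to 5.25 lay near or below the median of all probe sets. Of 14 alveolar macrophage markers, 12 were measured and 11 of them lay above the median of all probe sets (5.02), as did 9910 of all 13755 genes. FABP4, a fatty acid binding protein of alveolar macrophages, lay below it at a mean of 3.83, and CD68 and CSF1R had no named probe set. Differences are non-adherent minus adherent, with the standard error (SE) of the limma fit and its Benjamini-Hochberg adjusted p over all genes, and a gene was called at an adjusted p under 0.05. Of the 12 macrophage markers 5 were called, beside 16.5% of all genes. CD163 (1.51), MSR1 (0.96) and PTPRC (0.79) were higher in non-adherent cells, and APOE (-1.21) and PPARG (-0.64) were lower. CD163 lost its call without any of 9 single arrays, MSR1 without any of 8, and PPARG without both arrays of animal 4.

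Among the 10 genes, RCAN1 rose in non-adherent cells, NFATC3 fell, and 8 did not pass the threshold. Over all genes tested, 16.5% were called, 6.72% higher and 9.78% lower, so that 2 calls among 10 genes are near that background. With the animal as a block the same 2 genes were called, beside 18.2% of all genes, 7.85% higher and 10.4% lower. Without adherent animal 1 both were called too, beside 22.3% of all genes, 9.34% higher and 13.0% lower. The median log2 difference was -0.04 over the 10 genes and 0.01 over all genes, and the median size of a difference over all genes was 0.19. In RNA from a mixed population, fewer cells of a kind and less RNA per cell cannot be told apart.

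**Figure D1:**
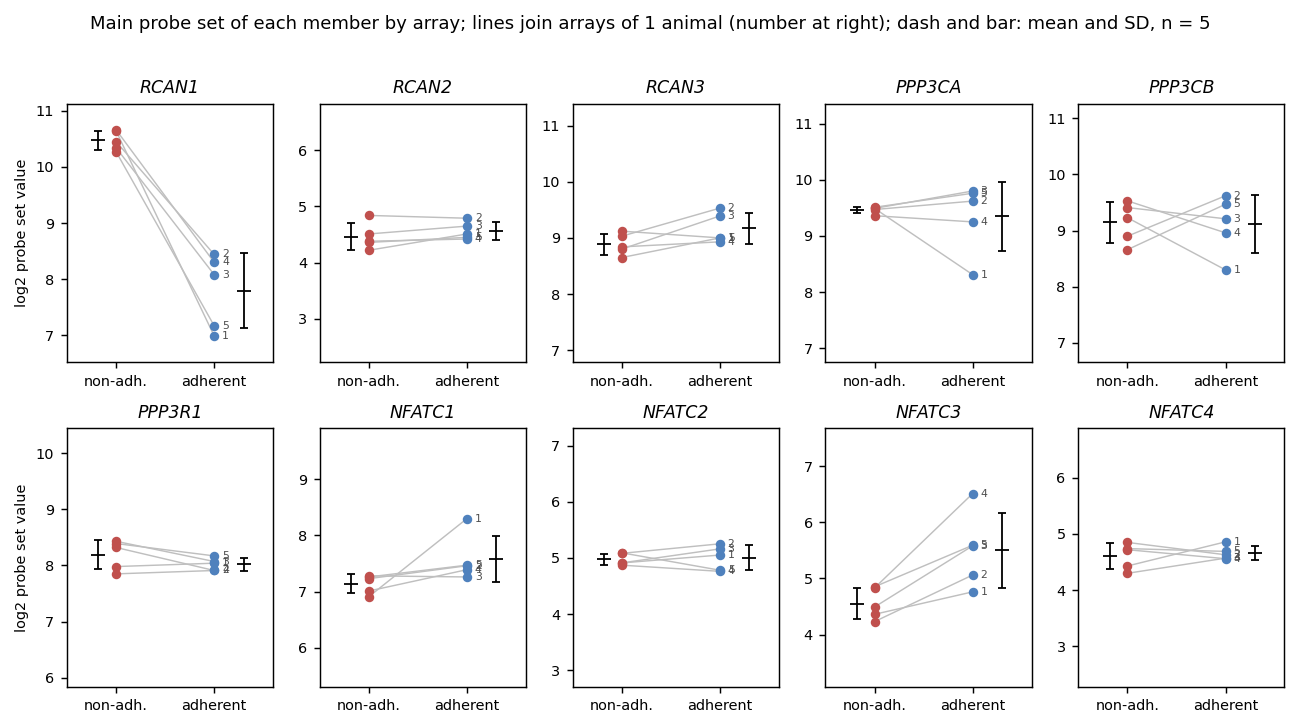
Log2 value of the main probe set of each of the 10 genes (y axes, all of the same width in log2 units) in non-adherent (left, red) and adherent (right, blue) arrays, with grey lines joining the 2 arrays of an animal and the mean and SD beside the points (n = 5 each). RCAN1 lies between 10.27 and 10.66 in non-adherent arrays and between 6.99 and 8.44 in adherent arrays, and NFATC3 is lower in the non-adherent array of all 5 animals.

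RCAN1, a calcineurin-binding regulator, was represented by 1 probe set (SNOWBALL_016148_st). Its log2 values were 10.64, 10.45, 10.34, 10.66 and 10.27 in non-adherent animals 1 to 5, against 6.99, 8.44, 8.08, 8.30 and 7.17 in adherent animals 1 to 5. All 5 non-adherent arrays were above all 5 adherent arrays, as in 15.0% of all genes the groups did not overlap in either direction. The non-adherent values lay within 0.39 of each other, whereas the adherent values spread over 1.45, with animals 1 and 5 lowest. RCAN1 averaged 10.47 ± 0.18 in non-adherent cells and 7.80 ± 0.67 in adherent cells (SD, n = 5 each). The log2 difference was 2.67 ± 0.27, a fold of 6.38 with a 95% interval of 2.08 to 3.27 on the log2 scale (adjusted p = 0.000145, limma), the ninth highest of 13755 genes (rank 9). The difference within an animal ran from 2.01 in animal 2 to 3.65 in animal 1. Without adherent animal 1 the group difference was 2.47. The array sets also differed in 3 BioB control probe sets, by 3.08 to 3.26, and in the same direction by 0.22 to 0.90 in the BioC, BioDn and CreX sets. For RCAN1 the array set cannot be told apart from the group. The RCAN1 transcripts that the probe set detects are not known here.

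The other RCAN genes did not follow. RCAN3, a paralog that also binds calcineurin, had log2 values of 9.12, 9.03, 8.80, 8.84 and 8.65 in non-adherent cells, against 9.00, 9.53, 9.39, 8.93 and 9.00 in adherent cells. The groups overlapped, the non-adherent array was the lower one in 4 of 5 animals, and the difference of -0.28 ± 0.14 did not pass (95% interval -0.59 to 0.03, adjusted p = 0.195). Its second probe set gave a difference of -0.22. RCAN2 lay between 4.22 and 4.84 in non-adherent and between 4.42 and 4.79 in adherent arrays, below the median of all probe sets, with a difference of -0.10 ± 0.12 (95% interval -0.37 to 0.17). The change of RCAN1 exceeded that of RCAN3 by 2.96 and that of RCAN2 by 2.77 in log2 units. Both had p = 0.00794 by a 2-sided exact permutation test of the within-array difference over 252 arrangements, the smallest p that test can give (adjusted p = 0.0198 over 5 comparisons within the families, chosen after the values were seen), and both held in 5 of 5 animals. With the animals as pairs, exact sign flips over 32 assignments gave p = 0.0625 for both, the smallest that 5 pairs allow (adjusted 0.104).

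The calcineurin subunit genes showed no difference past the threshold in any of their 12 probe sets. PPP3CA, the alpha catalytic subunit, had log2 values of 9.49, 9.47, 9.49, 9.36 and 9.51 in non-adherent cells, against 8.31, 9.62, 9.80, 9.25 and 9.76 in adherent cells. The non-adherent values were nearly equal, and adherent animal 1 was far below the other adherent arrays. Its difference was 0.12 ± 0.24 (95% interval -0.42 to 0.66), turning to -0.14 without adherent animal 1, and its 4 probe sets gave 0.04 to 0.40. PPP3CB, the beta catalytic subunit, had values of 9.23, 8.90, 9.41, 9.53 and 8.66 in non-adherent cells, against 8.30, 9.62, 9.21, 8.96 and 9.47 in adherent cells. Adherent animal 1 was again the lowest of all 10 arrays, and the difference of 0.04 ± 0.25 (95% interval -0.51 to 0.58) became -0.17 without it. The 7 probe sets of PPP3CB differed in sign, from -0.15 to 0.58. PPP3R1, the regulatory B subunit, ran from 7.85 to 8.43 in non-adherent and from 7.91 to 8.17 in adherent arrays, with a difference of 0.17 ± 0.12 (95% interval -0.10 to 0.45). Over all 12 probe sets the upper bounds of the intervals reached 0.86 for PPP3CA, 1.42 for PPP3CB and 0.44 for PPP3R1 in the fit over all probe sets.

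Among the NFAT genes NFATC3 was called and the others were not. NFATC3 had log2 values of 4.36, 4.23, 4.49, 4.83 and 4.85 in non-adherent cells, against 4.76, 5.06, 5.58, 6.51 and 5.59 in adherent cells. The non-adherent array was lower in 5 of 5 animals, by 0.40 to 1.69 in size, although adherent animal 1 at 4.76 lay within the non-adherent range. The difference was -0.95 ± 0.28 (adjusted p = 0.0413, limma). By mean over all arrays its single probe set ranked at the middle of all probe sets, with 50.1% below it. All its non-adherent values and that of adherent animal 1 lay below the median of all probe sets (5.02). The call was lost when any of 7 single arrays was left out (highest adjusted p 0.0923), held without adherent animal 1, 2 or 4, and was not made when p was adjusted over all 47845 probe sets (0.0552). Leaving out both arrays of animal 2, 3, 4 or 5 also ended it (highest adjusted p 0.145).

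NFATC1, the NFAT gene of osteoclast formation, had values of 6.91, 7.23, 7.28, 7.01 and 7.26 in non-adherent cells, against 8.30, 7.46, 7.26, 7.39 and 7.47 in adherent cells. Adherent animal 1 was far above the rest, and the other 4 adherent values lay between 7.26 and 7.47. The difference of -0.44 ± 0.18 did not pass (95% interval -0.84 to -0.04, adjusted p = 0.124), was -0.26 without adherent animal 1, and was negative in all 4 of its probe sets (-0.44 to -0.09). NFATC2, best known from T cells, lay between 4.87 and 5.09 in non-adherent and between 4.76 and 5.25 in adherent arrays, and NFATC4 lay between 4.30 and 4.85 in non-adherent and between 4.56 and 4.86 in adherent arrays. Most of these values were below the median of all probe sets. The difference was -0.03 ± 0.11 for NFATC2 (95% interval -0.28 to 0.22) and -0.05 ± 0.12 for NFATC4 (95% interval -0.31 to 0.20). The fall of NFATC3 was not shown to differ from those of the other NFAT genes. In the same exact permutation test, the difference of NFATC3 minus that of NFATC2 was -0.92 (p = 0.0476, adjusted 0.0595, negative in 5 of 5 animals). Against NFATC4 it was -0.90 (exact p = 0.0397, adjusted 0.0595, negative in 4 of 5), and against NFATC1 it was -0.51 (exact p = 0.325, also after adjustment, negative in 4 of 5). With the animals as pairs, the exact sign flips gave p = 0.0625 against NFATC2, 0.125 against NFATC4 and 0.25 against NFATC1, in a design that cannot go below 0.0625.

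**Figure D2:**
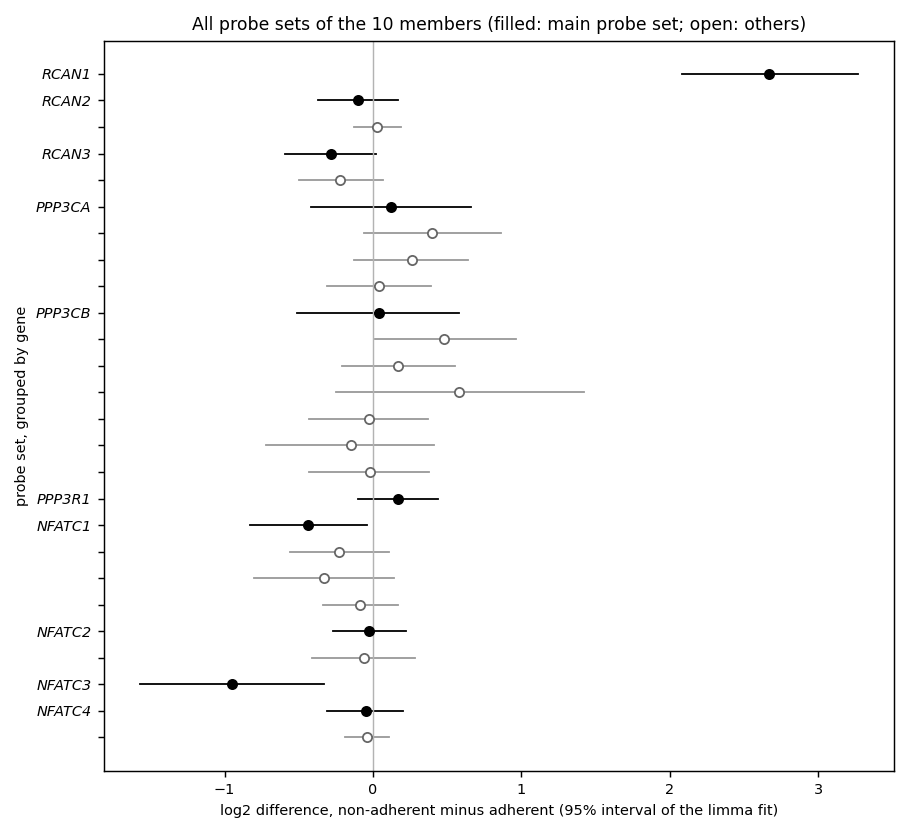
Log2 difference, non-adherent minus adherent, of all 26 probe sets of the 10 genes with the 95% interval of the limma fit over all probe sets (filled points: main probe set of a gene; open points: its other probe sets). The RCAN1 probe set at 2.67 is the only one of the 26 past an adjusted p of 0.05 over all 47845 probe sets, where 10.8% passed, 4.73% higher and 6.04% lower. With the animal as a block the NFATC3 probe set passed as well (adjusted p = 0.0164).

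Genes with the expression profile nearest to that of RCAN1 were sought among 9653 other named genes above the median of all probe sets. Likeness was the root mean square difference of the profiles over the 10 arrays after each was centred on its own mean, in log2 units. The 5 nearest were HPSE (0.34), which encodes heparanase, AQP9 (0.38), a water and glycerol channel, KLF7 (0.49), a transcription factor, ADAM19 (0.56), a membrane protease, and SLC25A44 (0.57), a mitochondrial carrier. The median over all genes compared was 1.45, and the sixth gene, CREBL2, also lay at 0.57. Of the 9 other pathway members the nearest was PPP3CA at 1.35, close to that median. A gene with no change over the arrays would lie at 1.41, so distances near that value show no change like that of RCAN1. AQP9 had values of 9.31, 9.71, 9.89, 9.36 and 9.14 in non-adherent cells, against 5.67, 7.18, 6.63, 6.51 and 5.54 in adherent cells, and so shared with RCAN1 the low values of adherent animals 1 and 5. These genes were chosen for their likeness to RCAN1, so their group differences, from 1.65 to 3.18, are a description. Averaged over each gene's probe sets, the differences were smaller, at 1.62 for AQP9, 1.18 for HPSE, 1.32 for KLF7, 1.40 for ADAM19 and 1.14 for SLC25A44.

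**Figure D3:**
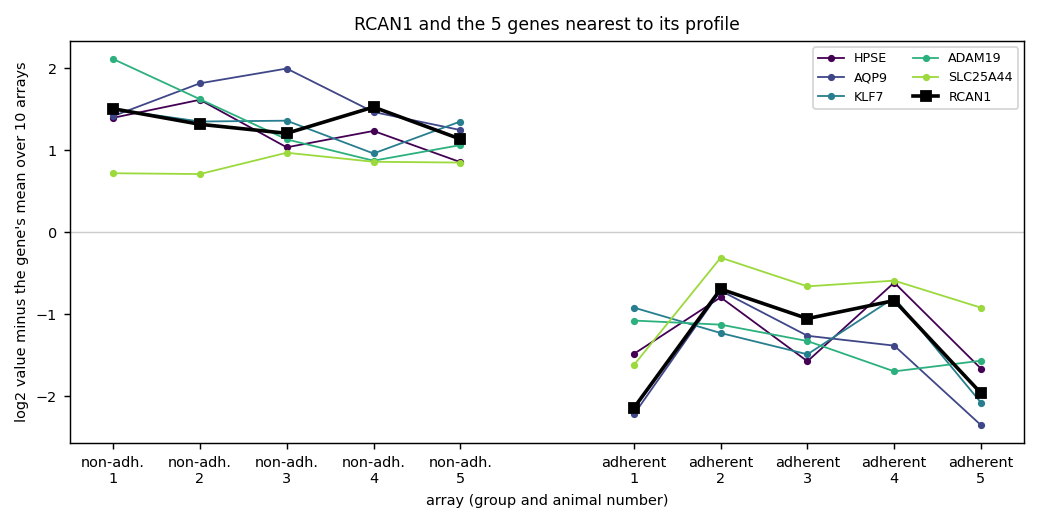
Log2 values minus each gene's mean over the 10 arrays (y axis) by array (x axis, non-adherent animals 1 to 5 on the left, adherent on the right) for RCAN1 (black squares) and the 5 genes nearest to it. All 6 genes lie above 0 in the 5 non-adherent arrays and below 0 in the 5 adherent arrays.

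Markers of other cell types were read beside the RCAN1 result. Of 12 listed dendritic cell markers, 9 were measured and 7 were higher in non-adherent cells, beside 6.72% of all genes. The largest differences were those of LAMP3 (3.33), CCL22 (3.18) and CCL17 (2.16). The log2 values of the 9 markers summed to 63.93 to 76.27 in non-adherent arrays and 53.44 to 56.06 in adherent arrays. The non-adherent sums were 76.27, 71.48, 68.61, 63.93 and 68.31 in animals 1 to 5. None of 12 T and NK cell markers and none of 5 neutrophil markers passed. Those that did were 1 of 5 B cell, 1 of 9 epithelial and 1 of 7 stromal and endothelial markers, beside 16.5% of all genes. With the animal as a block, 1 T and NK cell marker passed, IL7R (-1.64 ± 0.55 without the block, adjusted p = 0.0389 with it), as did 2 B cell markers and 0 stromal and endothelial markers. That fit called 18.2% of all genes. FCRLA, the B cell marker called without the block, lost its call without any of 8 single arrays (adjusted p up to 0.0964), and COL1A2, the stromal one, without any of 7 (up to 0.0605). The summed T and NK markers ran from 69.96 to 73.57 in non-adherent and from 70.62 to 74.04 in adherent arrays. EPCAM, an epithelial adhesion protein, was the epithelial marker that passed, at -1.35 ± 0.32 (adjusted p = 0.0162), a call that ended without both arrays of animal 3 or 4 (up to 0.0678). Summed neutrophil markers were 38.23 to 39.02 in non-adherent arrays, against 41.91 in adherent animal 1 and 36.76 to 38.10 in the other adherent arrays. The part of these markers in the results for RCAN1 and NFATC3 was not tested.

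The rest of the pathway was followed in 8 lists of 137 different genes, of which 117 were measured. Uncalled genes of the lists are named for their role in the pathway and were picked after their values were seen. In all, 10 rose, 12 fell and 95 did not pass, which is 8.55% higher and 10.3% lower, close to the 6.72% and 9.78% of all genes. Their median difference was 0.05. The counts of each list below stand beside 16.5% of all genes called in either direction.

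**Figure D4:**
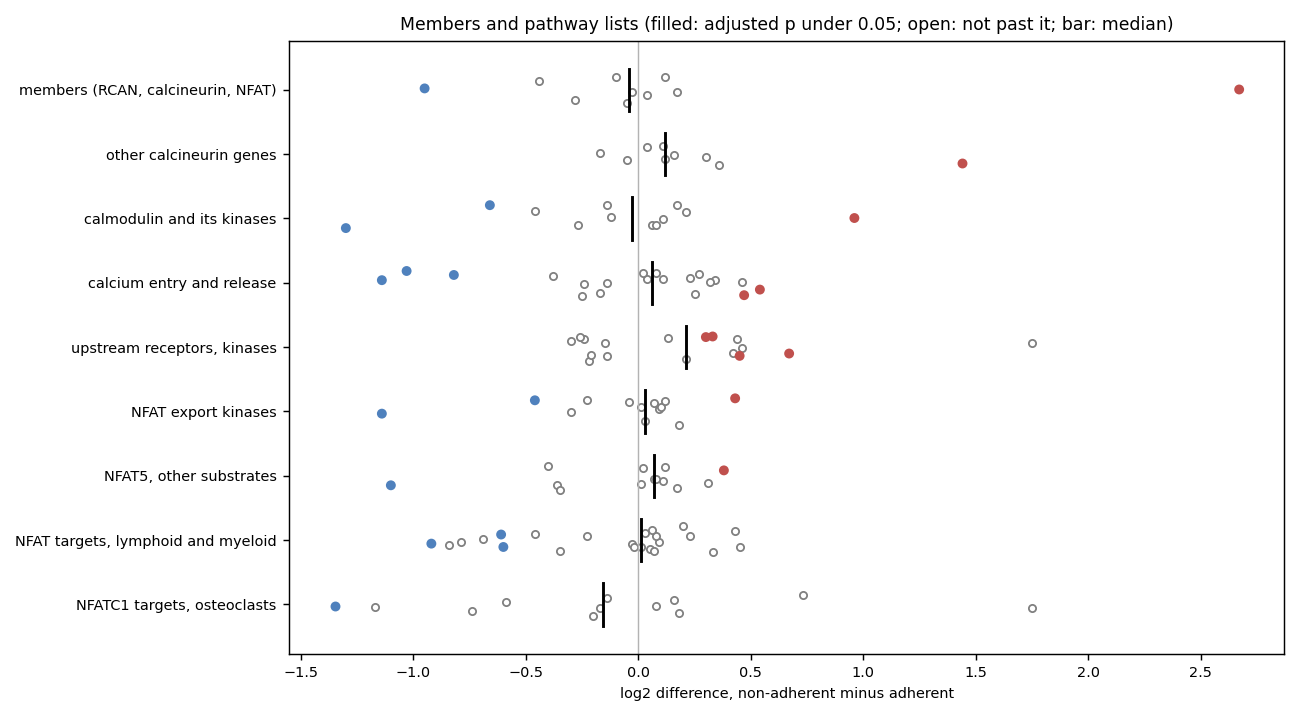
Log2 difference, non-adherent minus adherent (x axis), of each measured gene of the 10 members and the 8 pathway lists (rows), filled where the adjusted p was under 0.05 (red higher, blue lower) and open where it was not, with a bar at the median. RCAN1 at 2.67 lies beyond every gene of the lists, whose highest values are 1.75 and 1.44.

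Of 9 other calcineurin subunits, anchors and inhibitors, 1 rose and 0 fell. SYNPO2, an actin-binding protein of muscle, was higher by 1.44 ± 0.22 (adjusted p = 0.00183), and its 2 probe sets averaged together gave 0.77. PPP3CC, the gamma catalytic subunit, differed by 0.04 ± 0.11 and CABIN1, a calcineurin inhibitor, by -0.17 ± 0.09, neither past the threshold.

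Of 12 calmodulin and calmodulin kinase genes, 1 rose and 2 fell. CAMKK1 fell by 1.30 ± 0.21 on the log2 scale (adjusted p = 0.002) and CAMKK2 fell by 0.66 ± 0.12 (adjusted p = 0.00368). Both encode the kinases that switch on other calmodulin kinases. CAMKK1 was 6.05 to 6.20 in non-adherent and 6.57 to 7.95 in adherent arrays, with no overlap. DAPK1, a calmodulin-regulated death-associated kinase, rose by 0.96 ± 0.20 (adjusted p = 0.00786). CALM2, a calmodulin gene, differed by 0.06 ± 0.16 and did not pass.

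Of 20 genes of calcium entry and store release, 2 rose and 3 fell. The falls were TRPV2, a cation channel (-1.14 ± 0.11, adjusted p = 0.000138), ORAI3 (-1.03 ± 0.14, adjusted p = 0.000942) and ORAI1 (-0.82 ± 0.17, adjusted p = 0.00692), and these held when any 1 array or animal was left out. ORAI proteins form the store-operated calcium channel. ORAI1 values were 8.55, 8.33, 8.70, 8.80 and 8.54 in non-adherent cells, against 9.63, 8.78, 9.53, 9.64 and 9.46 in adherent cells, and the non-adherent array was lower in 5 of 5 animals with adherent animal 2 inside the non-adherent range. The third family member, ORAI2, differed by 0.34 ± 0.12 and did not pass (adjusted p = 0.0826), and STIM1, the sensor of the calcium store that opens them, differed by 0.25 ± 0.13. The channels TRPC1 (0.54 ± 0.14) and RYR1 (0.47 ± 0.13) rose. TRPC1 was no longer called when its probe sets were averaged (adjusted p = 0.324) or any of 5 single arrays was left out (up to 0.0661). RYR1 was no longer called when its probe sets were averaged (adjusted p = 0.358), any of 6 single arrays was left out (up to 0.0743) or the animal was a block (0.0615).

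Of 17 upstream receptors, adaptors and kinases, 4 rose and 0 fell. LCP2, the adaptor SLP-76, rose by 0.67 ± 0.09 (adjusted p = 0.000801). CLEC7A, the beta-glucan receptor dectin-1, rose by 0.45 ± 0.13 (adjusted p = 0.0409), the kinase LYN by 0.33 ± 0.08 and the receptor chain FCER1G by 0.30 ± 0.08. CLEC7A lost its call without any of 8 single arrays (highest adjusted p 0.0917), when arrays were centred on their medians (0.0677) and when its probe sets were averaged (0.0877). FCER1G, a gene chosen after its values were seen, lost its call without adherent animal 5 (0.0542). As a block, the animal left both with an adjusted p of 0.0523, and FCER1G reached 0.0946 without both arrays of an animal. LYN lost its call without both arrays of animal 3, 4 or 5 (highest adjusted p 0.0685). SYK, the kinase below dectin-1, differed by -0.26 ± 0.14 and PLCG2, the phospholipase that releases calcium, by 0.13 ± 0.17, neither past the threshold. With adherent animal 1 left out, the list had 6 higher and 2 lower, in a fit that called 22.3% of all genes. The 2 lower were SYK (-0.38, adjusted p = 0.0233, limma) and the adaptor BLNK (-0.48, adjusted p = 0.00924).

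Of 13 kinases and scaffolds of NFAT export, 1 rose and 2 fell. GSK3B, which phosphorylates NFAT for export, rose by 0.43 ± 0.09 (adjusted p = 0.0062). DYRK3 fell by 1.14 ± 0.19 (adjusted p = 0.00263), or by 0.71 with its probe sets averaged, and DYRK2, a priming kinase, fell by 0.46 ± 0.12. DYRK2 missed the threshold once non-adherent animal 1 or 2 was dropped (up to 0.056) or both arrays of animal 1, 2, 3 or 4 were (up to 0.0776), and its 3 probe sets averaged together differed by 0.02. Of 13 genes for NFAT5, which calcineurin does not control, and other calcineurin substrates, 1 rose and 1 fell. TFEB, a transcription factor of lysosome genes that calcineurin dephosphorylates, had values of 7.98, 7.97, 8.09, 7.88 and 7.99 in non-adherent cells, against 9.12, 8.96, 9.28, 9.02 and 9.01 in adherent cells. The groups did not overlap, and the fall was 1.10 ± 0.08 on the log2 scale, the lowest p of the pathway lists apart from CLCN7 (adjusted p = 4.04e-05). DNM1L, a mitochondrial fission protein, rose by 0.38 ± 0.11, a call that ended once any of 7 single arrays was dropped (up to 0.0819), its probe sets were averaged (0.128) or arrays were centred (0.0668). NFAT5 differed by 0.31 ± 0.12 and did not pass. Without adherent animal 1 the NFAT5 and substrate list had 2 higher and 2 lower, again beside 22.3% of all genes. NFAT5 was among the higher ones there (0.39, adjusted p = 0.0261, limma).

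Target genes were read in 2 lists. Of 23 NFAT targets described in lymphocytes and myeloid cells, 0 rose and 3 fell, at a median of 0.01. These calls stand beside 16.5% of all genes. With the animal as a block 1 rose, CD69, an early activation marker (0.45, adjusted p = 0.0168, against 0.195 without the block), and 2 fell. The block fit called 18.2% of all genes, so the counts of this list do not exceed the background. CCL4, a chemokine, fell by 0.92 ± 0.22 (adjusted p = 0.0165), a call lost without both arrays of animal 3 or 5 (highest adjusted p 0.0961). IKZF1, the transcription factor Ikaros, fell by 0.61 ± 0.16. IKZF1 missed the threshold once non-adherent animal 2 or adherent animal 4 was dropped (up to 0.052) or both arrays of animal 2 or 3 were (up to 0.0915), and its 6 probe sets averaged together differed by 0.02. IRF8, a transcription factor of myeloid development, fell by 0.60 ± 0.17, a call that ended once any of 7 single arrays was dropped (up to 0.08) or the animal was a block (0.0512). IL2, the classical NFAT target of T cells, lay between 3.07 and 3.31 in all arrays. Of 12 NFATC1 targets described in osteoclasts, 0 rose and 1 fell, at a median of -0.16. With the block 1 rose, TNFRSF11A (adjusted p = 0.0114, against 0.0524 without it), which is also in the list of upstream receptors, and 1 fell. The osteoclast counts, too, stand beside 16.5% of all genes without the block and 18.2% with it. CLCN7, a chloride transporter of lysosomes and of the osteoclast border, fell by 1.35 ± 0.09 (adjusted p = 2.25e-05), with 7.37 to 7.72 in non-adherent and 8.83 to 9.11 in adherent arrays.

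Adherent animal 1 stood apart in the target genes and in the neutrophil and alveolar macrophage markers. The neutrophil markers summed to 41.91 in that array and to 36.76 to 38.10 in the other adherent arrays. Its alveolar macrophage markers summed to 117.11, the highest of all arrays. Those sums were 103.87 to 109.54 in the other adherent arrays and 110.01 to 115.55 in non-adherent arrays. The log2 values of the 23 NFAT targets summed to 150.49 to 153.93 in non-adherent arrays, 169.71 in adherent animal 1 and 148.50 to 156.92 in the other adherent arrays. That array also stood apart over all probe sets, with a mean correlation of 0.9612 with the other adherent arrays. Whether the targets stood apart by more than other genes was not tested. Summed epithelial markers were 51.60 to 53.28 in non-adherent arrays, against 55.41 in adherent animal 1 and 52.24 to 54.34 in the other adherent arrays. Its T and NK sum of 70.62 was below the 71.31 to 74.04 of the other adherent arrays, and its B cell sum of 27.07 above their 25.31 to 26.24. Both lay within the non-adherent ranges, 69.96 to 73.57 and 26.35 to 27.52. Its stromal and endothelial sum (39.65) lay within the range of the other adherent arrays. Its dendritic cell sum was 53.44, against 53.67 to 56.06 in the other adherent arrays. CSF3R, a neutrophil growth factor receptor picked after its values were seen, was 9.21 to 9.81 in non-adherent arrays. It was 11.51 in adherent animal 1 and 8.39 to 9.18 in the other adherent arrays. The part of these markers in the values of that array was not tested. The genes given next were chosen after their values were seen. NR4A2, a nuclear receptor of the immediate early response, was 4.82 to 5.30 in non-adherent arrays, against 8.56 in adherent animal 1 and 5.01 to 5.24 in the other adherent arrays. TNF was 9.34 to 10.21 in non-adherent arrays, against 12.10 in adherent animal 1 and 8.94 to 10.96 in the others. The same array had the lowest RCAN1 (6.99) and the highest NFATC1 (8.30) of the 10. Without it, 1 gene of the NFAT target list rose and 3 fell, and 1 of the osteoclast list rose and 3 fell, where 22.3% of all genes were called. The 4 of 23 NFAT targets lay below that share and the 4 of 12 osteoclast targets above it. Both lists are small, neither count was tested against the share, and no contrast between the lists is drawn.

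**Figure D5:**
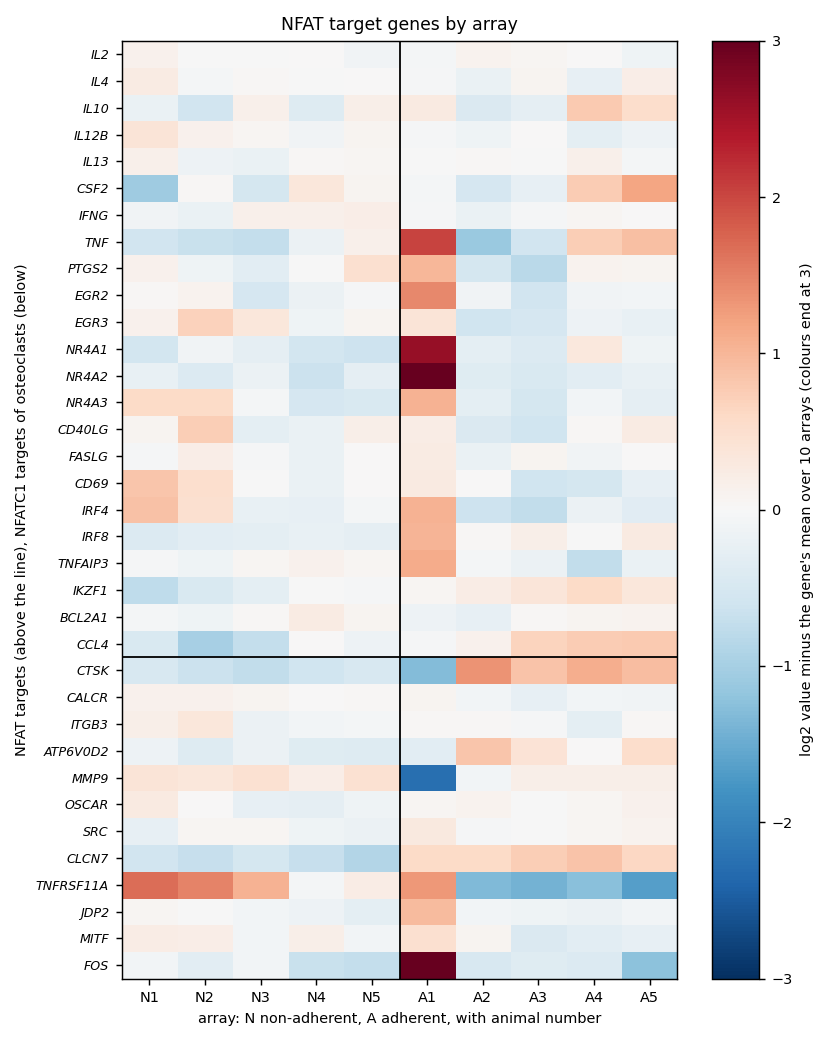
Log2 value minus the gene's mean over the 10 arrays (colour, red above and blue below the mean, ending at 3) for the 23 NFAT targets and the 12 NFATC1 targets of osteoclasts (rows) in non-adherent (N1 to N5) and adherent (A1 to A5) arrays. The column of adherent animal 1 holds the deepest colours, such as FOS at 11.57 and NR4A2 at 8.56, and CLCN7 and CCL4 are lower across the non-adherent columns.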

How the data were processed

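The deposited file holds log2 probe set values made by the authors. RMA and Partek are named, with no version, in the submitters' processing notes, and joint normalization of both array sets is not stated there. No genome build is given, so no coordinates are printed. Of 47845 probe sets, 26426 had 1 symbol in the platform annotation, 0 several and 21419 none. The 2-sided test over 13755 genes used limma 3.58.1 (lmFit, eBayes; R 4.3.3), with p adjusted by Benjamini-Hochberg and called under 0.05. Figures were drawn with matplotlib 3.10.9. The number of arrays limits the precision.

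Members, lists and tests were chosen with earlier results of these data known. Named genes are all members, up to 3 called genes per direction and list (the lowest p where none was called), and the 5 nearest RCAN1 profiles.

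The labels number the pigs alike in both groups, which were taken as pairs: across genes, r between deviations from the group means was 0.116, 0.22, 0.398, 0.364 and 0.394 in animals 1 to 5. In animals 2 to 5 each array was most like the array of its own number in the other group. Both arrays of animal 1 were most like the array of animal 2 in the other group, so that pair rests on the labels alone. Alternatives included the animal as a block, leaving out arrays or animals, scaling, filters, variance models, array weights and probe set means. The fit was tested on simulated data.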

Additional observations from a re-analysis of the deposited data

Results flagged for a closer look

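Among the 20 groups of 5 arrays formed by 10 genes, 2 held an array whose gap to the next was large for the group's range, where chance flags about 1 group in 20. NFATC1 was 8.30 in adherent animal 1, against 7.26 to 7.47 in the other adherent arrays. PPP3CA was 9.36 in non-adherent animal 4, against 9.47 to 9.51 in the other non-adherent arrays, a gap of small size.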

How the results depend on the processing

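RCAN1 kept its call under all 23 alternatives, at 2.43 to 2.84, with a highest adjusted p of 0.00287. The animal as a replicate block left 2 members called, RCAN1 (adjusted p = 0.00103) and NFATC3 (0.0104), and changed no other call among the 10 genes. Pairing by animal left the differences of RCAN1 from RCAN2 and RCAN3 at 2.77 and 2.96, with an adjusted exact p of 0.104 in place of 0.0198. Members called numbered 1 to 2 and genes called 1119 to 3067 when arrays or animals were left out, and probe sets 2289 to 6511. With a log2 difference of at least 1 required as well, 1 member and 327 genes were called. The sign of uncalled members turned without a replicate, with lowest and highest values of -0.15 and 0.23 for PPP3CA, -0.19 and 0.25 for PPP3CB, -0.11 and 0.04 for NFATC2, and -0.12 and 0.04 for NFATC4. Array weights gave -0.10 for PPP3CA and -0.12 for PPP3CB. Averaging probe sets gave 0.02 for DYRK2 and for IKZF1. The cause was not tested. Low probe sets (RCAN2, NFATC2, NFATC4) limit what can be seen of those genes. The limit also holds for NFATC3, whose non-adherent values (4.23 to 4.85) all lay below the median of all probe sets (5.02).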

Other observations

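Genes of the osteoclast programme that did not pass without the animal block were followed further after their values were seen. TNFRSF11A, the receptor RANK that induces NFATC1 in mouse and human osteoclast precursors, had log2 values of 8.02, 7.82, 7.37, 6.27 and 6.57 in non-adherent cells, against 7.63, 5.01, 4.91, 5.08 and 4.68 in adherent cells. The difference was 1.75 ± 0.55 (adjusted p = 0.0524, limma), higher in 5 of 5 animals, and passed with the animal as a block (0.0114). It was 2.29 ± 0.32 without adherent animal 1 (adjusted p = 0.000693), although the mean of its probe sets gave 0.63 (adjusted p = 0.113). CTSK, the collagen-degrading cathepsin K, had 9.72 to 9.97 in non-adherent arrays, against 9.15 in adherent animal 1 and 11.31 to 11.79 in the other adherent arrays. Its difference was -1.17 ± 0.41 (adjusted p = 0.0764) and -1.64 ± 0.11 without that array (adjusted p = 1.41e-05). MMP9, a gelatinase, was 12.86 to 13.13 in non-adherent arrays, against 10.40 in adherent animal 1 and 12.58 to 12.85 in the others.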
